A study of Mus musculus with 8 samples.

Results

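Intraflagellar transport (IFT) and BBSome genes were described in RNA sequencing of whole adult mouse testis, in 4 libraries with the genotype label Ssty2-/- (knockout) and 4 with the label WT (wild type). Genes were taken by name: symbols of Ift or Bbs followed by digits only, together with Traf3ip1, Cluap1, Ttc26, Ttc30a1, Ttc30a2, Ttc30b, Wdr19, Wdr35, Wdr60, Wdr34, Dync2h1, Dync2li1, Mkks, Arl6, Bbip1 and Ttc8. The rule gave 38 genes of the 56748 in the table of counts, and no measured value entered it. All 38 lie on autosomes. Ift88os, an antisense gene whose symbol carries a suffix after the digits, was set apart; it had between 4 and 18 counts per library. Ssty2 is a multicopy gene of the long arm of the mouse Y chromosome that is transcribed in spermatids, and the comparison asks what differs in testis after deletion of its repeats. Both groups are adult testis with no treatment named; the strain and the age in weeks were not given in the sources used here. The labels do not say whether replicates came from different animals, so p-values measure only how these libraries vary, which can be technical variation.

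IFT moves cargo along the microtubules of cilia and flagella. Trains of the IFT-B complex are drawn outwards by kinesin-2 motors and carried back, with the IFT-A complex, by the dynein-2 motor. The BBSome is an octamer that rides these trains and sorts membrane proteins; the small GTPase Arl6 recruits it to membranes, and 3 chaperonin-like proteins help to assemble it. In the testis, spermatids build the sperm tail, and in mice loss of IFT or BBSome subunits such as Ift88, Ift20, Ift172 or Bbs4, is known to leave sperm without normal flagella.

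Of the 38 genes, 13 rose and 3 fell in knockout and 22 did not pass the test (quasi-likelihood test of edgeR, p under 0.05 after Benjamini-Hochberg adjustment over 21952 tested genes). All 38 passed the filter on low counts. The called share was 42.1%, against 53.5% of all tested genes. By direction, 34.2% of the 38 were called higher, against 26.2% of all genes, and 7.89% were called lower, against 27.4%. The groups did not overlap for 14 of the 38 (36.8%, against 46.7% of all genes), 13 with the knockout higher, where 22.7% of all genes were, and 1 with it lower, where 24.0% were. Without knockout replicate 1 or 2, or without wild-type replicate 1 or 2, 1 gene of the 38 was called lower, and with any other library left out there were 2. In the fits with 1 library left out, 24.3% to 26.7% of all tested genes were called lower. The changes were small: log2 fold changes, knockout over wild type, ran from -0.42 to 0.51 with a median of 0.09, beside a median of -0.01 over all genes. None of the 38 changed by 2-fold, where 7.83% of all genes were called with at least that size. The median absolute log2 fold change was 0.117 in the 38 and 0.347 over all genes. Among the 13705 tested genes whose mean CPM lies within the range of the 38, 63.0% were called (29.6% higher and 33.3% lower), 547 were called with at least a 2-fold change and the median absolute log2 fold change was 0.298.

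How the libraries are scaled moves these values together. The trimmed mean of M-values (TMM) used here sets the bulk of genes level between libraries, and scaling by library totals instead lowered every log2 fold change by about the same amount, moving the median of all genes to -0.15 and that of the 38 to -0.05. With library totals 9 genes were called higher (17.5% of all genes were) and 9 lower (37.6% of all genes). The 9 higher were Wdr60, Ift22, Ift81, Ift43, Traf3ip1, Cluap1, Ift172, Bbs5 and Bbs7, which were called higher in each of the 15 alternatives run. Of these, Bbs7 and Ift172 came closest to the threshold, with a highest adjusted p of 0.0496 and 0.0404 over the 15. With library totals Ift122, Ift140, Ift27 and Ift57 kept their sign and lost the call. Ift20 was called lower in each alternative. By role, the counts called higher and lower with library totals were 1 and 1 in IFT-A, 2 and 2 in the IFT-B core, 3 and 2 in peripheral IFT-B, 1 and 2 in dynein-2, 2 and 1 in the BBSome and 0 and 1 among the chaperonin-like genes. With upper quartile scaling the counts were 19 higher and 1 lower (30.9% and 22.7% of all genes). In sum the 38 genes held 0.395% ± 0.00549 of all counts in the wild-type group and 0.399% ± 0.00448 in the knockout group (SD, n = 4 each). On the TMM scale their summed level was 3820.4, 3769.6, 3753 and 3719 CPM (counts per 1000000 counts of the TMM-scaled library) in the wild-type libraries and 4176, 4314, 4149 and 4167 CPM in the knockout libraries. The groups did not overlap on that scale, whereas the shares of all counts did.

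**Figure D1:**
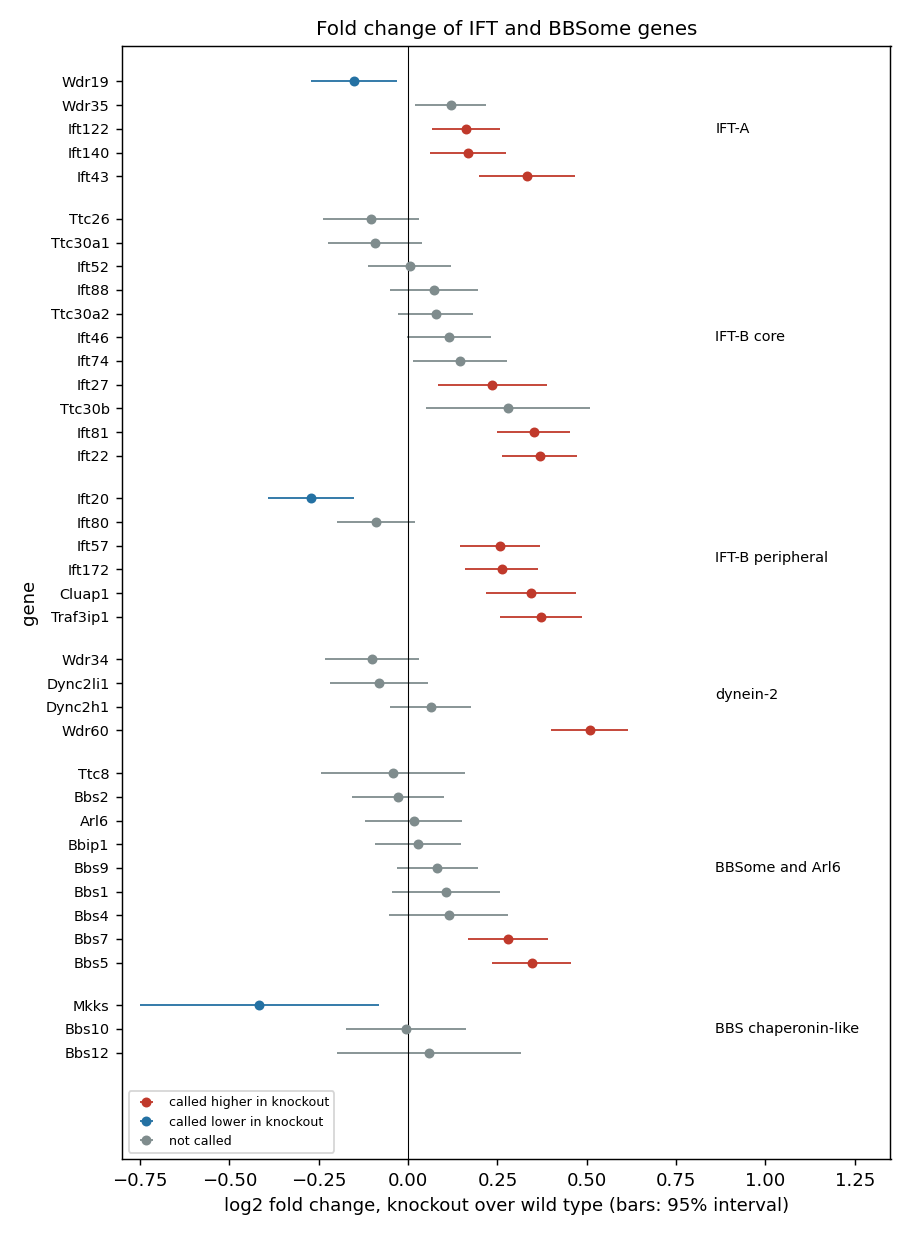
Log2 fold change of each of the 38 genes, knockout over wild type (points), grouped by role and ordered within a role. Bars are approximate 95% intervals, 1.96 SE to either side by the normal quantile. Red points were called higher, blue lower, grey not called, on the TMM scale. Wdr60 has the largest rise (0.51), and most BBSome genes lie near 0; with library totals every point lies further left by nearly the same amount.

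**Figure D2:**
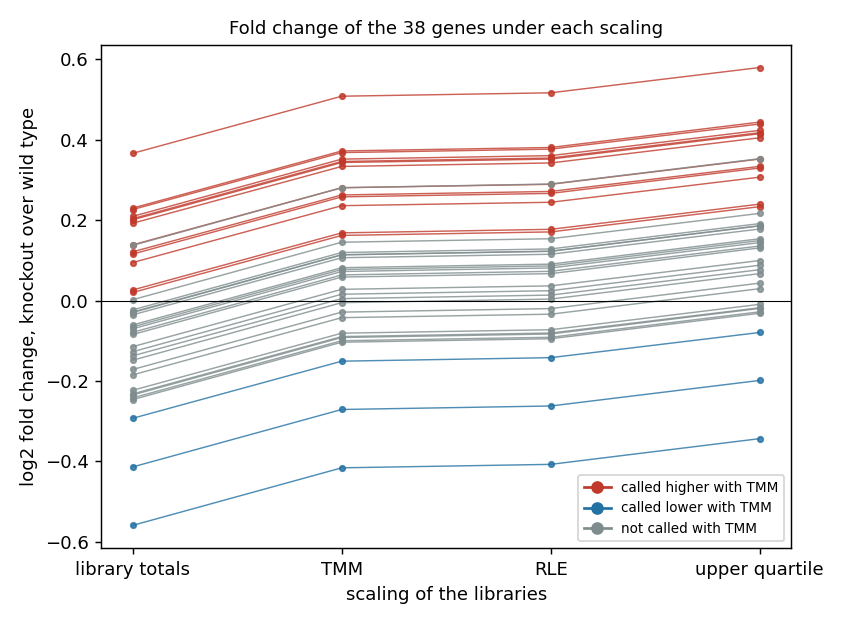
Log2 fold change of each of the 38 genes (y axis) under 4 scalings of the libraries (x axis), 1 line per gene, coloured by its call with TMM. The lines run side by side, so the scaling shifts all genes alike: with library totals the 3 genes called lower stay below 0 and the 13 called higher stay above it, while 12 genes that were not called change sign.

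The libraries held from 18036708 to 24415587 counts. The gene entry read for Ssty2 (ENSMUSG00000095302) had counts of 56, 78, 83 and 45 in wild type, and each knockout library had 0. Other copies of this multicopy gene were not read. Marker lists of other stages and cell types were read as well, on the TMM scale only. Of all tested genes, 26.2% were called higher and 27.4% lower on that scale. Round spermatid markers were called higher in 10 of 10, with a summed level from 1859 to 2079.6 CPM in wild type and from 2944 to 3047 CPM in knockout, and elongating spermatid markers in 9 of 10, from 13343 to 16548 CPM in wild type and from 20881 to 24121 CPM in knockout. Meiotic spermatocyte markers were called higher in 1 and lower in 6 of 12. Their summed level overlapped between the groups, from 5084 to 5253 CPM in wild type and from 5123 to 5609 CPM in knockout. Spermatogonial markers were called higher in 1 and lower in 7 of 10. The summed level of that list ran from 202 to 228 CPM in wild type and from 138 to 148 CPM in knockout. Sertoli cell markers were called lower in 10 of 11, from 665 to 751 CPM in wild type and from 419 to 489 CPM in knockout, and Leydig cell markers in 7 of 7, from 1575 to 1855 CPM in wild type and from 856 to 933 CPM in knockout. Markers of peritubular myoid cells, macrophages, endothelium and epididymis were called lower in 5 of 6, 5 of 7, 2 of 5 and 2 of the 2 tested, and none was called higher. Of 8 markers of the multiciliated and epithelial cells of efferent ducts and rete testis, 4 (Cdhr3, Krt18, Mcidas and Pax8) were under 1 CPM, and Foxj1, which the testis also transcribes in spermatids, was the 1 called, higher; it is named after its value was seen. Their summed level ran from 80.2 to 91.3 CPM in wild type and from 108 to 124 CPM in knockout. Most of it was Foxj1, with 57.0 to 69.0 CPM in wild type and 80.8 to 99.9 CPM in knockout. The other 4 tested genes of that list were not called. No marker of these lists was at 0 in all libraries. In whole tissue, fewer cells of a type and less RNA per cell cannot be told apart, and the part of these shifts in the results below was not tested.

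RFX factors bind the X-box, an inverted repeat found in promoters of many ciliary genes. Promoter windows of 300 bases, 250 before to 50 after the start (RefSeq, GRCm38.p6), were found for 33 of the 38 genes and searched on both strands for a 14-base form of the X-box: the half-site GTNGCC, any 2 bases and the half-site GGNAAC, in which 4 positions are free. Letters of this form stood in 6 of 33 genes (18.2%), against 0.666% of all 27025 genes with such a window. The 6 were Bbs1, Bbs4, Bbs7, Ift22, Ttc26 and Ttc30a2. Other spellings were looked at and are not reported, so these shares belong to a chosen spelling and were not tested. Among genes of the lists given further on, matches stood in 4 of 19 transition zone genes, 1 of 19 kinesin-2 and accessory genes and 1 of 8 genes of the CCT chaperonin, and in none of 16 cofactor genes and 8 transcription factor genes. The matches that lie before the start are printed 5′ to 3′ along the gene, with the motif in capitals, because they show the shared element beside genes that did and did not pass the test; Ift22 holds a second match upstream on the opposite strand.
Bbs7, chr3:36613477-36613530, minus strand: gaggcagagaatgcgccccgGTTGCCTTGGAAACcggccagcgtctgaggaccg
Ift22, chr5:136908097-136908149, plus strand: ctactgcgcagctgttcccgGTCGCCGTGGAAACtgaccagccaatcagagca
Ift22, chr5:136908067-136908120, plus strand: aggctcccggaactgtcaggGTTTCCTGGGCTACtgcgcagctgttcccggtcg
Ttc26, chr6:38381471-38381523, plus strand: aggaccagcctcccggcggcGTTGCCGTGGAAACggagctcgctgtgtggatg
Ttc30a2, chr2:75978180-75978223, minus strand: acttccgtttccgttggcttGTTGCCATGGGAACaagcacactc
In both Ift22 and Ttc26 a match covers the bases from 33 to 20 before the start. Bbs7 and Ift22 rose, whereas Ttc26 and Ttc30a2 were not called; matches stood in 2 of the 11 genes with a window that were called higher in none of the 3 that were called lower and in 4 of the 19 that were not called. A match describes these letters only.

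IFT-A subunits rose in 3 of 5 genes and fell in 1, where 26.2% of all tested genes rose and 27.4% fell, with a median log2 fold change of 0.16. Ift43 (ENSMUSG00000007867, chromosome 12), which encodes a small subunit that binds the Wdr35 protein, had 67.9, 59.5, 54.7 and 60.1 CPM in the wild-type libraries and 78.1, 71.4, 79.0 and 76.4 CPM in the knockout libraries. Every knockout library lay above every wild-type library, with group means of 60.6 ± 5.49 and 76.2 ± 3.39 CPM (SD, n = 4; log2 fold change of 0.33 with an SE of 0.0686, adjusted p = 0.000678). Ift122, a core subunit, went from 281 ± 8.81 to 314 ± 9.23 CPM (log2 fold change of 0.16 with an SE of 0.0485, adjusted p = 0.0101), and its groups did not overlap either. Ift140, the core subunit gene with the highest CPM of the 38, went from 513 ± 27.7 to 576 ± 30.8 CPM (adjusted p = 0.0160), with 1 wild-type library, at 552 CPM, above the lowest knockout library, at 543 CPM. The Ift140 call was also lost without knockout replicate 2 or wild-type replicate 3, and with library totals (adjusted p from 0.00280 to 0.677 over the 15 alternatives).

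The other IFT-A genes gave smaller or opposite values. Wdr19 (IFT144) fell, from 81.3 ± 2.92 to 73.2 ± 4.95 CPM, with 83.9, 83.2, 80.5 and 77.5 CPM in wild type and 66.7, 73.5, 78.7 and 73.8 CPM in knockout. The groups overlapped, the adjusted p was 0.0479, and the call ended in 10 of 15 alternatives: with DESeq2, with RLE or upper quartile scaling, without the filter on low counts, and without wild-type replicate 1, 2 or 3 or knockout replicate 1, 2 or 4 (adjusted p from 0.000872 to 0.284 over all 15). Wdr35 (IFT121) had a log2 fold change of 0.12 and missed the threshold (adjusted p = 0.0584), although its groups did not overlap. The sixth IFT-A subunit, Ttc21b, lies outside the naming rule and was named after its value was seen; it went from 162 ± 6.96 to 171 ± 6.70 CPM and did not pass (adjusted p = 0.231).

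Of the 11 IFT-B core genes of the naming rule, 3 rose (27.3%, near the 26.2% of all tested genes) and none fell (27.4% of all genes did). Hspb11 (IFT25), whose product pairs with that of the core gene Ift27, lies outside that rule and was named after its value was seen. It was called lower (log2 fold change -0.30, adjusted p = 0.0204) and was counted among the accessory genes further on. Ift22 (ENSMUSG00000007987, chromosome 5), which encodes a Rab-like GTPase of the complex, had 97.9, 87.3, 90.2 and 92.3 CPM in wild type and 116, 118, 119 and 121 CPM in knockout. Its lowest knockout library was well above its highest wild-type library, and the mean went from 91.9 ± 4.47 to 119 ± 2.23 CPM (log2 fold change of 0.37 with an SE of 0.0540, adjusted p = 3.36e-05). Ift81 (ENSMUSG00000029469, chromosome 5), whose product binds tubulin together with the Ift74 protein, had 144, 149.6, 158 and 152 CPM in wild type and 182, 201, 194 and 193 CPM in knockout, again without overlap (log2 fold change of 0.35 with an SE of 0.0522, adjusted p = 3.75e-05). Its partner gene Ift74 had the highest level per exon length of the 38 and did not pass (log2 fold change 0.14 ± 0.0672 SE, adjusted p = 0.0795). Ift27, a further Rab-like GTPase gene that links IFT-B to the BBSome, had 26.2, 21.7, 25.9 and 26.1 CPM in wild type and 30.2, 28.1, 28.6 and 30.9 CPM in knockout (log2 fold change 0.24, adjusted p = 0.0182). Without wild-type replicate 2, the lowest of the wild-type libraries, its adjusted p was 0.0714.

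The remaining 8 core genes of the naming rule did not pass, with log2 fold changes from -0.10 (Ttc26, IFT56) to 0.28 (Ttc30b). For Ift88, the subunit whose loss defines the classical mouse IFT mutant, wild type had 86.6, 95.9, 90.7 and 85.0 CPM and knockout 85.2, 94.6, 99.5 and 97.3 CPM. The approximate 95% interval of its difference ran from -0.05 to 0.20 on the log2 scale (1.96 SE on either side). That of Ift52, a scaffold subunit, ran from -0.11 to 0.12. Ift46, which carries outer dynein arms, had a log2 fold change of 0.11 (adjusted p = 0.123). Mouse testis transcribes 3 copies of the IFT70 gene, Ttc30a1, Ttc30a2 and Ttc30b, all on chromosome 2. Of the 31-base words of their transcripts, 36.5%, 61.3% and 44.4% were found in another gene, so their counts are uncertain one by one. Ttc30a2 was the highest at 143 ± 4.18 CPM in wild type and 151 ± 7.58 in knockout (adjusted p = 0.235). Ttc30a1 had 36.9 ± 2.44 and 34.6 ± 0.494 CPM (adjusted p = 0.263), and Ttc30b, the lowest, had 9.24 ± 0.886 and 11.2 ± 1.49 CPM (adjusted p = 0.0530).

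Of the 6 peripheral IFT-B genes, 4 rose and 1 fell, beside 26.2% and 27.4% of all tested genes. Traf3ip1 (IFT54; ENSMUSG00000034292, chromosome 1), which encodes a microtubule-binding subunit, had 69.5, 66.7, 67.5 and 67.1 CPM in wild type and 94.9, 83.9, 84.0 and 87.7 CPM in knockout. All knockout libraries were higher, with knockout replicate 1 the highest (log2 fold change of 0.37 with an SE of 0.0580, adjusted p = 5.91e-05). Cluap1 (IFT38; ENSMUSG00000014232, chromosome 16) had 46.6, 50.5, 53.3 and 52.5 CPM in wild type and 60.7, 65.6, 63.4 and 67.8 CPM in knockout (log2 fold change of 0.34 with an SE of 0.0640, adjusted p = 0.000297). Its groups did not overlap, but 18.4% of its exon bases lie under exons of the other strand and 22.4% under exons of another gene on its own strand, so its value is uncertain. Ift172, the largest IFT-B subunit, had 478, 415, 434 and 442 CPM in wild type and 552, 529, 528 and 514 CPM in knockout (log2 fold change of 0.26 with an SE of 0.0523, adjusted p = 0.000521). Ift57, whose product pairs with that of Cluap1, went from 54.2 ± 1.85 to 64.8 ± 1.70 CPM (adjusted p = 0.00129), and Ift80 did not pass (-0.09, adjusted p = 0.184).

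Ift20 (ENSMUSG00000001105, chromosome 11) went the other way. It encodes the smallest IFT-B subunit, which also sits at the Golgi and, in mouse germ cells, is needed for sperm tail assembly. The wild-type libraries had 59.7, 68.8, 61.8 and 63.1 CPM and the knockout libraries 51.8, 53.1, 52.0 and 53.3 CPM. The knockout libraries lay close together and all below the lowest wild-type library. The mean dropped from 63.4 ± 3.89 to 52.5 ± 0.743 CPM (log2 fold change of -0.27 with an SE of 0.0611, adjusted p = 0.00142). Its approximate 95% interval ran from -0.39 to -0.15. It was the gene with the fifth highest level per exon length in wild type.

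**Figure D3:**
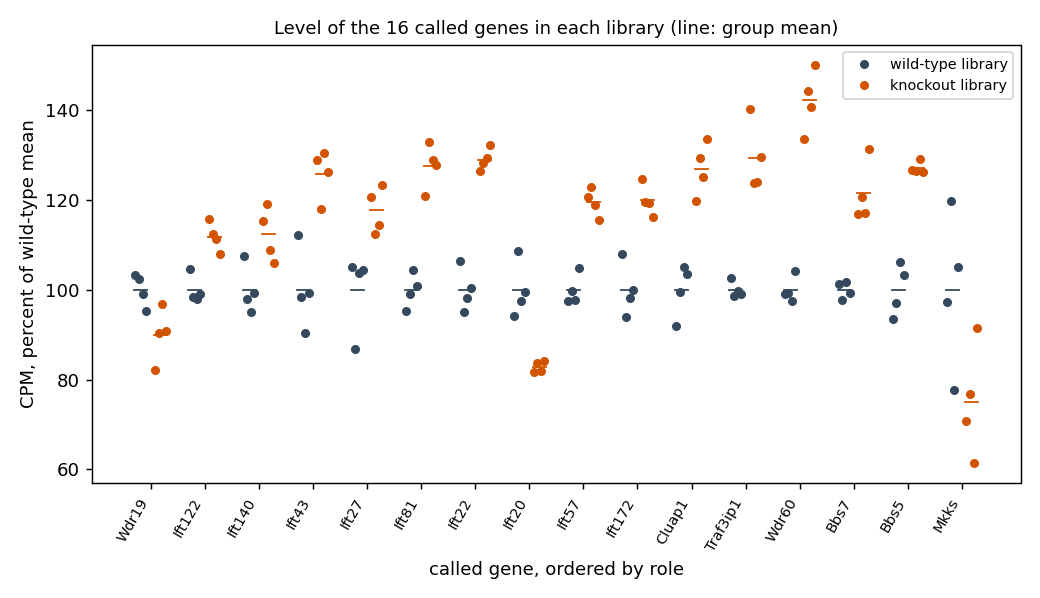
Level of the 16 called genes in each library (y axis, CPM as a percentage of the gene's wild-type mean; dark points wild type, orange points knockout, short lines group means), with genes ordered by role on the x axis. Ift20 is the 1 gene whose knockout libraries all lie below its wild-type libraries, and the groups of Wdr19, Ift140 and Mkks overlap.

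Of the 4 dynein-2 genes of the naming rule, 1 rose, a share close to the 26.2% of all tested genes, and the other 3 did not pass. Dynein light chain genes lie outside that rule and were counted in the accessory list further on. Wdr60 (ENSMUSG00000042050, chromosome 12), which encodes an intermediate chain, had 90.4, 90.5, 88.9 and 94.97 CPM in wild type and 122, 132, 128 and 137 CPM in knockout, the largest rise of the 38. Every knockout library was above every wild-type library (log2 fold change of 0.51 with an SE of 0.0547, adjusted p = 1.53e-06), and with library totals the log2 fold change was 0.37 (adjusted p = 3.23e-05). The gene of the other intermediate chain, Wdr34, had 49.9, 50.2, 46.3 and 53.9 CPM in wild type and 50.2, 46.5, 44.5 and 45.5 CPM in knockout. Its groups overlapped and it did not pass (adjusted p = 0.222). Dync2h1, the heavy chain that holds the motor domain, went from 207 ± 13.6 to 216 ± 10.1 CPM (adjusted p = 0.369), and Dync2li1, its light intermediate chain, from 33.3 ± 1.51 to 31.5 ± 1.82 CPM (adjusted p = 0.341).

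Among the BBSome genes and Arl6, 2 of 9 rose (22.2%, against 26.2% of all tested genes) and none fell (27.4% of all genes did), and the other 7 had log2 fold changes from -0.04 to 0.11. Bbs5 (ENSMUSG00000063145, chromosome 2), a subunit with lipid-binding PH-like domains, had 76.4, 79.3, 86.7 and 84.3 CPM in wild type and 103.4, 103.4, 105.4 and 103.2 CPM in knockout. The knockout libraries were nearly equal and all above wild type (log2 fold change of 0.35 with an SE of 0.0560, adjusted p = 8.40e-05). Bbs7 (ENSMUSG00000037325, chromosome 3), a propeller subunit that pairs with the Bbs2 protein, had 70.7, 68.2, 71.0 and 69.4 CPM in wild type and 81.5, 84.3, 81.8 and 91.7 CPM in knockout (log2 fold change of 0.28 with an SE of 0.0573, adjusted p = 0.000646). Bbs2 itself had 42.6 ± 2.20 and 41.8 ± 1.95 CPM (adjusted p = 0.734), with an interval from -0.16 to 0.10 on the log2 scale. Bbs1, the subunit through which Arl6 recruits the complex, had a log2 fold change of 0.11 (interval -0.04 to 0.26), Bbs4 0.11 (interval -0.05 to 0.28) and Bbs9 0.08 (interval -0.03 to 0.20). Ttc8 (BBS8) and Bbip1 (BBS18), the smallest subunit, lay at -0.04 and 0.03, and Arl6 (BBS3) at 0.02. The approximate intervals of these 7 genes leave room for changes of up to about 0.28 on the log2 scale. The test itself leaves room for somewhat more. With library totals Bbs2 was called lower (-0.17, adjusted p = 0.0423).

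The 3 chaperonin-like genes were among the lowest of the 38. Mkks (BBS6) had 4.58, 5.64, 3.66 and 4.95 CPM in wild type and 3.33, 3.62, 2.89 and 4.31 CPM in knockout. The groups overlapped, and the fall from 4.71 ± 0.826 to 3.53 ± 0.596 CPM just passed (adjusted p = 0.0490). The call ended in 9 of 15 alternatives: with DESeq2, with RLE or upper quartile scaling, and without wild-type replicate 1, 2 or 4 or knockout replicate 1, 2 or 3 (adjusted p from 0.0110 to 0.154 over all 15). Of the words of its transcripts, 28.1% are shared with overlapping genes. Bbs10 and Bbs12 had log2 fold changes of -0.01 and 0.06 and did not pass (adjusted p = 0.963 and 0.730).

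A ratio of counts between 2 genes of a library does not depend on how libraries are scaled. Such ratios were taken for 7 pairs of genes whose products are known neighbours within a complex; the pairs were chosen after the fold changes had been seen, so the ratios are given with no test. No share of such differences among other pairs of genes was computed, so nothing is read from how many pairs differed. Wdr60 over Wdr34 was 1.81, 1.80, 1.92 and 1.76 in the wild-type libraries and 2.43, 2.83, 2.88 and 3.01 in the knockout libraries. Traf3ip1 over Ift20 was 1.16, 0.970, 1.09 and 1.06 in wild type and 1.83, 1.58, 1.62 and 1.65 in knockout. In both pairs every knockout ratio was above the highest wild-type ratio. Ift27 over Hspb11, the gene of its partner IFT25, had a mean of 2.31 ± 0.293 in wild type and 3.35 ± 0.338 in knockout. Bbs7 over Bbs2 went from 1.64 ± 0.0931 to 2.03 ± 0.101, and Ift81 over Ift74 from 0.647 ± 0.0296 to 0.746 ± 0.0332. The ratios of Cluap1 over Ift57 and of Ift43 over Wdr35 overlapped between the groups.

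**Figure D4:**
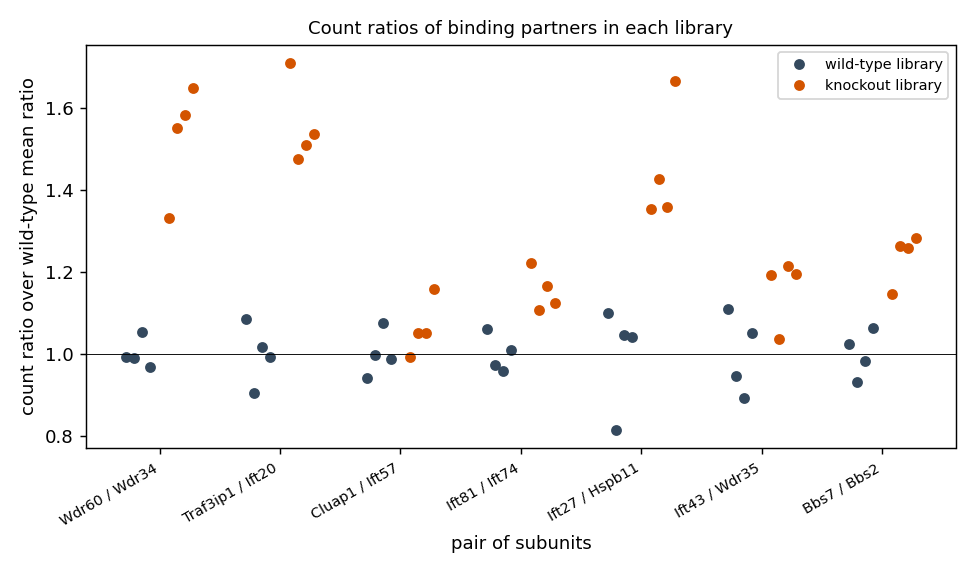
Ratio of counts of 2 genes in each library, divided by its mean in wild type (y axis), for 7 pairs of neighbouring subunits (x axis; dark points wild type, orange points knockout). The knockout points of Wdr60 over Wdr34, Traf3ip1 over Ift20, Ift81 over Ift74, Ift27 over Hspb11 and Bbs7 over Bbs2 all lie above the wild-type points, and those of the other pairs overlap.

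Levels between genes were compared in wild type as CPM per kilobase of annotated exon, using merged exons of GENCODE vM21; transcripts actually used in testis may be shorter. The highest was Ift74 at 88.1 ± 6.98 CPM per kb, followed by Ift172 at 66.9 ± 3.98 and Ift140 at 61.5 ± 3.32. Ttc30a2, at 58.7 ± 1.72, lay within the spread of Ift140. Ift20 (41.5 ± 2.55), Ift43 (36.7 ± 3.32) and Bbs5 (33.4 ± 1.91) came next, and among these 3 the ranges of mean ± SD of neighbours overlapped. Wdr35 (27.5 ± 1.10) and Ift122 (27.2 ± 0.854) did not differ beyond their spread, nor did Ift81 (25.8 ± 0.981) and Ift22 (25.5 ± 1.24). At the low end stood Mkks (1.46 ± 0.256), Bbs12 (2.63 ± 0.389), Ttc30b (3.38 ± 0.324), Ttc8 (3.54 ± 0.315) and Bbs4 (3.55 ± 0.238). Subunits of 1 complex spanned wide ranges: the IFT-A genes ran from 7.21 ± 0.259 (Wdr19) to the value of Ift140, and the BBSome genes from that of Ttc8 to that of Bbs5.

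**Figure D5:**
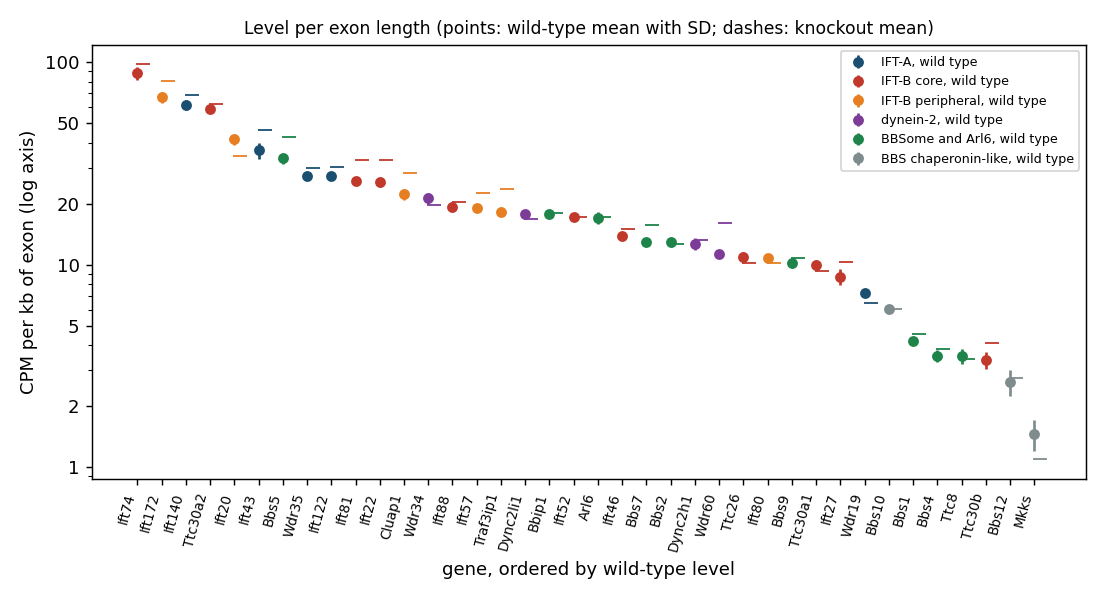
Level of each of the 38 genes per exon length (y axis, CPM per kilobase of exon, log axis; points are wild-type means with SD, n = 4, dashes are knockout means), ordered by wild-type level on the x axis and coloured by role. Ift74 is highest at 88.1 CPM per kb and Mkks lowest at 1.46.

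Genes that work with IFT but fall outside the naming rule were taken from lists chosen by function. Of 21 tested genes of kinesin-2 motors and IFT accessory proteins, 13 rose (61.9%, against 26.2% of all tested genes) and 3 fell (14.3%, against 27.4%), with a median log2 fold change of 0.21. Ttc21a, a paralog of the IFT-A gene Ttc21b that is known from the sperm tail, went from 196 ± 15.8 to 315 ± 10.5 CPM (log2 fold change of 0.68 with an SE of 0.0592, adjusted p = 1.70e-07). Kif17, a homodimeric kinesin-2 gene, rose by 0.54 on the log2 scale and Cep19, whose product helps IFT-B enter the cilium, by 0.50. Those that fell were Dynlrb1 (-0.68), a dynein light chain gene, Hspb11 (-0.30) and Kif3c (-0.58). Kif3c was low and its groups overlapped, with 2.61 to 4.51 CPM in wild type and 2.08 to 2.97 CPM in knockout. Without wild-type replicate 2, 1 gene of this kinesin-2 and accessory list was called lower, where 24.3% of all genes tested without that library were. With library totals 7 genes of the list were called higher and 4 lower, where 17.5% and 37.6% of all genes were. On that scale the counts for the lists that follow were 4 and 2 of the transcription factor genes, 5 and 2 of the cofactor genes and 1 and 3 of the CCT genes.

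Of 9 tested ciliary transcription factor genes, 5 rose (55.6%) and 2 fell (22.2%), beside 26.2% and 27.4% of all tested genes (median 0.42); Mcidas and Myb were too low to test. Rfx1 went from 127 ± 6.69 to 212 ± 11.4 CPM (log2 fold change of 0.74 with an SE of 0.0574, adjusted p = 5.24e-08), Rfx3 rose by 0.60 and Rfx2, which drives many spermatid genes, by 0.42. Tfdp1 (-0.37) and E2f5 (-0.21, adjusted p = 0.0422) fell. In 10 of the 15 alternatives only 1 gene of the list was called lower: with DESeq2, with RLE or upper quartile scaling, without the filter on low counts, and without wild-type replicate 2, 3 or 4 or knockout replicate 2, 3 or 4. In those alternatives 15.1% (without the filter) to 26.7% (RLE scaling) of the tested genes were called lower. Of 16 ciliary GTPase and BBSome cofactor genes, 7 rose (43.8%) and 2 fell (12.5%), beside 26.2% and 27.4% of all tested genes (median 0.13). Rp2, which encodes an activator of the GTPase activity of Arl3, went from 39.4 ± 2.13 to 79.7 ± 4.79 CPM (log2 fold change of 1.02 with an SE of 0.0655, adjusted p = 6.52e-09), the largest change among the genes of these lists. Rpgr, whose product sits at the base of cilia, rose by 0.68 and Tulp2, a testis gene of the tubby family, by 0.46, while Unc119b (-0.66) and Rab10 (-0.26) fell.

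The transition zone is the gate at the base of the cilium. Of its 22 tested genes 8 rose (36.4%) and 3 fell (13.6%), with a median of 0.15, so that 11 of 22 were called, a share close to the 53.5% of all tested genes. With library totals 3 rose and 5 fell, where 17.5% and 37.6% of all genes did. Tmem237 (0.52) and Rpgrip1 (0.38) rose, and Iqcb1 (-0.70), B9d2 (-0.46) and Cc2d2a (-0.59) fell. The CCT chaperonin works with the chaperonin-like BBS proteins. Of its 9 genes 4 rose (44.4%, against 26.2% of all tested genes) and 2 fell (22.2%, against 27.4%), with a median of 0.10. Cct6b, the testis form of the zeta subunit, went from 281 ± 8.25 to 340.1 ± 22.6 CPM, whereas its counterpart Cct6a went from 178 ± 6.42 to 152 ± 5.40 CPM, and both passed (adjusted p = 0.000475 and 0.00136). Cct7 (0.22) and Tcp1 (0.17) also rose and Cct8 (-0.26) fell. Without wild-type replicate 4, 2 CCT genes were called higher, where 23.4% of all genes tested without that library were.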

How the data were processed

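RNA of whole adult testis was sequenced in 8 libraries. TRIzol and DNase were used for the total RNA and TruSeq for the libraries, per the labels' protocols. The deposited values are raw, whole-number counts, listed by Ensembl gene. The submitters' processing notes name mm39 and the tools STAR, featureCounts, Trimmomatic, FastQC and DESeq2; their versions and settings, the annotation release, the strand setting and the treatment of multi-mapping reads were not given in the sources used here.

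Counts were tested with edgeR 4.0.16 in R 4.3.3 (quasi-likelihood test, genotype as the only term, filterByExpr with a minimum count of 10 and a minimum total of 15, TMM scaling). The test was tried on counts with known changes first. The SE of a fold change is its size divided by the square root of the F statistic. CPM are TMM-scaled, given as mean ± SD (n = 4). Symbols came from GENCODE vM21 (GRCm38), which matched 52073 of 56748 genes; its exons gave lengths, overlaps and shared 31-base words. Alternatives were DESeq2 1.42.0, other scalings and filters, a replicate block and leaving out each library. The genes and lists were chosen with earlier results of these data known. Every gene of the naming rule may be named; from each further list, up to 3 called genes per direction with the smallest p. The X-box letters used are 1 spelling of that motif; others were looked at and are not reported. Each library counted as 1 sample. Counts of libraries within a group differed by more than sampling noise. That can be technical variation and does not show that libraries came from different animals.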

Additional observations from a re-analysis of the deposited data

Results flagged for a closer look

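In 90 groups of 4 libraries (38 genes and 7 sums, in each genotype), 5 had a library far from the other 3, by Dixon's test at its 95% critical value; chance flags about 1 in 20 groups. Bbs12 had 4.99 CPM in wild-type replicate 1, against 6.73 to 6.998 in the others. Ift122 had 294 CPM in wild-type replicate 1, against 275 to 278. Ift27 had 21.7 CPM in wild-type replicate 2, against 25.9 to 26.2. Bbs5 had 105.4 CPM in knockout replicate 3, against 103.2 to 103.4, a narrow range. The summed level of the 38 genes was 4314 CPM in knockout replicate 2, against 4149 to 4176 CPM in the other knockout libraries.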

How the results depend on the processing

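Of the 13 genes called higher, 9 kept the call and sign in all 15 alternatives, as did 1 (Ift20) of the 3 called lower; the causes of the changes below were not tested. The 3 genes called lower became 1 with DESeq2, with RLE scaling and with upper quartile scaling, and 9 with library totals (1 to 2 over the libraries left out in turn). The chaperonin-like count of 1 lower became 0 with DESeq2, RLE and upper quartile scaling (0 to 1 over libraries). The IFT-A count of 1 lower became 0 with DESeq2, RLE, upper quartile scaling and without the low count filter (0 to 1 over libraries), and its 3 higher became 1 with library totals. With library totals the genes called lower were 1 in the BBSome, 2 in the IFT-B core, 2 in peripheral IFT-B and 2 in dynein-2. The IFT-B core count of 3 higher became 7 with upper quartile scaling. Of all genes, 30.9% were called higher and 22.7% lower with that scaling, and 17.5% and 37.6% with library totals. The shares were 26.7% in each direction of 21952 genes tested with RLE scaling, and 19.8% higher and 20.7% lower of 27545 with DESeq2. Without the low count filter they were 13.9% higher and 15.1% lower of 41909 genes. These shares rest on different sets of tested genes, so they are not compared with each other. Over the libraries left out in turn, 22.7% to 24.7% of tested genes were called higher and 24.3% to 26.7% lower. Of the further lists, CCT genes called higher were 1 with library totals (2 to 4 over libraries), kinesin-2 and accessory genes called higher 7, and transition zone genes called higher 3 and lower 5. The transcription factors called lower were 1 with DESeq2, RLE, upper quartile scaling and no filter (1 to 2 over libraries), and the kinesin-2 genes called lower ran from 1 to 3 over libraries.

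Genes not called changed sign as follows. With library totals the log2 fold changes were -0.13 for Arl6, -0.11 for Bbip1, -0.036 for Bbs1, -0.085 for Bbs12, -0.030 for Bbs4, -0.061 for Bbs9, -0.079 for Dync2h1, -0.029 for Ift46, -0.14 for Ift52, -0.070 for Ift88, -0.065 for Ttc30a2 and -0.023 for Wdr35. With upper quartile scaling they were 0.067 for Bbs10, 0.043 for Bbs2 and 0.029 for Ttc8, with RLE scaling 0.0036 for Bbs10, and for Ift52 -0.0017 without the filter and -0.0055 with the stricter one. Over the libraries left out in turn the values ran from -0.028 to 0.041 for Arl6, -0.0028 to 0.068 for Bbip1, -0.061 to 0.047 for Bbs10, -0.047 to 0.11 for Bbs12, -0.024 to 0.017 for Ift52 and -0.099 to 0.014 for Ttc8.

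The replicate numbers of the titles are not said to pair the libraries, and the correlations of same-numbered deviations ran from 0.00201 to 0.0798, with 3 of 4 knockout libraries correlating best with their own number. With the replicate block 16 of the 38 genes were called higher and 3 lower, against 26.9% and 28.3% of all genes, and in the IFT-B core 5 were higher; Wdr35, Ift74 and Ttc30b gained the call. The lowest count of any of the 38 genes in a library was 61, so depth limits Mkks, Bbs12 and Ttc30b most.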
